A study of Mus musculus with 11 samples.

Results

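The 3 libraries described here are those of renal CD4+ T cells from control mice (CD4cre), chosen by their label out of the 11 libraries of the series. The other 8 come from 5 mice labelled CD4IKK1 and 3 mice labelled CD4NIK, which carry a floxed gene for IKK1 or for NIK and delete it through a Cre transgene that the CD4 promoter drives. CD4cre mice express the recombinase without a floxed gene per their group name, while a second label calls their genotype WT. All mice were males on a C57BL/6 background, 8 to 12 weeks old, and all kidneys were taken on day 2 after renal ischemia–reperfusion injury (IRI) with 45 min of ischemia. No uninjured kidney is among the libraries, so that nothing below separates the state after IRI from the state before it. Each library is 1 mouse labelled as a biological replicate. The cells were enriched with magnetic beads and purified by sorting, and libraries were made from their RNA with a SMARTer mRNA kit, so that each value is an average over the sorted cells. A Cre driven by the CD4 promoter is also active in cells that pass a CD4-expressing stage in the thymus, CD8 T cells among them.

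CD4+ T cells recognise peptides on MHC class II through an αβ T cell receptor, which signals through the CD3 chains and, on activation, switches on immediate early transcription factors, costimulatory receptors and cytokines. Helper subsets are told apart by lineage factors and cytokines: T-bet and interferon-γ for Th1, IL-17 and IL-22 for Th17, GATA3 and IL-4 for Th2, and Foxp3 for regulatory T cells. In the kidney, CD4+ T cells are known to enter the tissue within days of IRI and to add to the injury.

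The estimated counts summed to 25737046, 19590793 and 19030516 in CD4cre replicates 1, 2 and 3. Levels are given as CPM, counts scaled to a common library size after scaling by edgeR's TMM factors, always in the order of replicates 1, 2 and 3, where the number is a name and not an order. A floor of 3 counts corresponded to 0.115, 0.146 and 0.150 CPM, which covers the error of counting alone, because the libraries carry no molecular identifiers to tell copies from molecules. At 1 CPM or more in all 3 libraries, 11820 of 35814 gene symbols were detected. The 10 genes with the most counts took 10.3%, 9.90% and 9.48% of the counts, and genes of the mitochondrial genome 1.90%, 1.98% and 1.99%.

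The label of the cells was met only in part. T cell receptor and CD3 genes were present in all 3 libraries. Cd4 exceeded both CD8 chains per kb, Cd8a by far more than Cd8b1. However, transcripts known from neurons were present too and took more of the counts than those of the T cell receptor. The 19 neuronal genes listed summed to 9317, 10500 and 11208 CPM, and the 7 genes of the T cell receptor and CD3 to 1704, 1358 and 788 CPM. The neuronal sums rest largely on few members, of which Stmn3 alone had 2967, 3278 and 3571 CPM. Per kb of transcript, Stmn3 of the neuronal list (3225 ± 298) exceeded Trbc2, the highest gene of the receptor list (751 ± 270 CPM per kb, SD, n = 3), whereas Stmn2 (379), Nefl (253), Slc17a7 (196) and Rbfox3 (92.8 CPM per kb) lay below Trbc2 and Trac (421 CPM per kb). The sums of CPM over each list are not per length. They were 0.941%, 1.10% and 1.17% of all counts for the neuronal list and 0.172%, 0.143% and 0.0825% for the receptor list. The ratio of the sums was 5.47 in replicate 1, 7.73 in replicate 2 and 14.2 in replicate 3. Both lists thus differed between the libraries in opposite directions, with replicate 1 the richest in receptor transcripts. The part of these transcripts in any level given below was not tested. In bulk RNA, fewer cells of a type and less RNA per cell cannot be told apart, which holds for every level and difference here.

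Some levels rest on near-identical genes, and 2 sequences from GENCODE on GRCm39 show this for the constant region of the T cell receptor β chain. The first exons of Trbc1 and Trbc2 hold 375 bases each and differ at 1 of them, printed in capitals in a window of 81 bases on the plus strand, at chr6:41515371-41515451 for Trbc1 and chr6:41523883-41523963 for Trbc2.
Trbc1: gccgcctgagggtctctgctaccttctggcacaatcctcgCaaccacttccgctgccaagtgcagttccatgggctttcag
Trbc2: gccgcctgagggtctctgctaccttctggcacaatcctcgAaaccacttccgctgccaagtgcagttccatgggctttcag
Of the words of 31 bases in the transcripts of Trbc1, 45.4% also occur in Trbc2, and reads from such stretches are divided between both genes by estimation. The split between Trbc1 and Trbc2 is therefore uncertain, while their sum is not affected.

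The most abundant transcripts per length included genes that many cell types express and several best known from brain. Levels of single genes are compared with each other as CPM per kb of transcript, with the median transcript length of the gene in GENCODE. Tmsb4x, the actin-binding thymosin β4 that is abundant in leukocytes, had the highest mean level per kb at 22052 ± 1408 CPM per kb (SD, n = 3). Calm2 (calmodulin) followed with 9813 ± 781 and Fth1 (ferritin heavy chain) with 8633 ± 379 CPM per kb. The 3 libraries barely differed in these genes. Nnat, known from the developing brain, had 5918 ± 596 CPM per kb and ranked above Oaz1 (5761 ± 234) and Ubb (5441 ± 1342), which encode ornithine decarboxylase antizyme and ubiquitin. Their ranges overlapped, so that the order of Nnat, Oaz1 and Ubb is not settled by these libraries.

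Of the 30 genes with the highest mean level per kb, 5 are genes of the mitochondrial genome, namely mt-Co3, mt-Co2, mt-Atp6, mt-Co1 and mt-Cytb. Stmn3, which encodes a stathmin of neurons, had 2925, 3231 and 3520 CPM per kb. Olfm1 and Rtn1, also best known from brain, had means of 2574 ± 169 and 2295 ± 208 CPM per kb. Dock10, a guanine nucleotide exchange factor of lymphocytes and neurons, had 15236, 16293 and 14208 CPM, or 4424 ± 303 CPM per kb. The immediate early gene Junb and the inducible chaperone genes Hspa1a and Hspa1b were the members of this group with the widest spread, at 4294, 1965 and 1688 CPM per kb for Junb. By comparison, Cd3e had 84.4, 49.6 and 31.9 CPM per kb and ranked 1669 among all genes. With the longest transcript in place of the median length, Tmsb4x and Calm2 stayed first and second by rank. Nnat moved from rank 5 to 4, Fth1 from 3 to 7, Oaz1 from 6 to 23, Stmn3 from 11 to 25 and Hsbp1 from 29 to 76. The order of genes by level per kb thus depends on the length used.

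**Figure D1:**
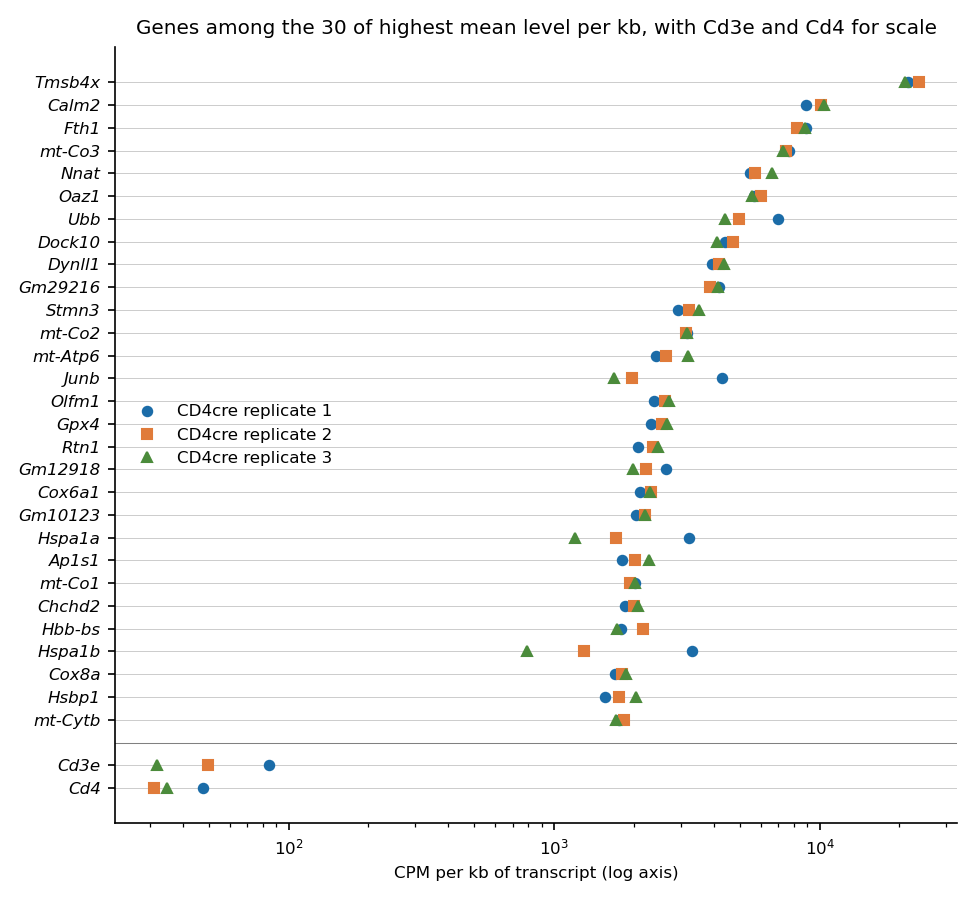
Level per kb of transcript (log axis) of genes among the 30 with the highest mean in CD4cre mice, with Cd3e and Cd4 below the line for scale, where each symbol is 1 library. The 3 libraries lie close together for most genes, with Junb, Hspa1a, Hspa1b and Ubb highest in replicate 1, and Cd3e and Cd4 lie below 100 CPM per kb.

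T cell receptor constant regions and CD3 chains differed more between the 3 mice than the median gene did. Trac, the constant region of the α chain on chromosome 14 (54457978 to 54461663, GRCm39), had 392, 283 and 176 CPM. Trbc2 had 669, 579 and 310 CPM and Trbc1 had 317, 244 and 143 CPM. Replicate 1 was thus highest and replicate 3 lowest, by ratios of 2.23, 2.16 and 2.21 for the 3 genes. Cd3d had 192, 178 and 106 CPM and Cd3e 123, 72.4 and 46.5 CPM, in the same order of libraries. All 5 members of the list with a mean of 5 CPM or more were highest in replicate 1 and lowest in replicate 3, an order that 20.5% of the 10145 genes with that mean showed. Their median ratio of the highest to the lowest library was 2.21, beside 1.47 for all of these genes.

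The other members of the receptor complex were listed at low values. Cd247, the ζ chain that carries most of the signalling motifs, had 9.19, 1.14 and 3.75 CPM. Cd3g, which every αβ T cell needs for its receptor, had 0.673, 1.09 and 1.48 CPM, or 1.12 CPM per kb on average beside 175 for Cd3d and 55.3 for Cd3e. In CD4NIK libraries, Cd3g had 2.17 to 13.3 CPM. Low values of single genes in this table are given as listed, and a gene at 0 is described as listed at 0.

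Variable segments of the T cell receptor were diverse but thinly covered. Of 130 Trav segments of the α chain, 65, 40 and 34 had more than 3 counts in replicates 1, 2 and 3, from 1391, 1058 and 505 counts in all. Of 35 Trbv segments of the β chain, 23, 20 and 17 had more than 3 counts, and Trbv12-2 led in each library with 19.4%, 14.0% and 21.8% of the Trbv counts. Trav11 led the Trav segments with 26.1%, 52.6% and 26.5% of their counts, or 363, 557 and 134 counts. Trav11 is the segment used by the invariant receptor of natural killer T (NKT) cells, together with Traj18. Traj18 had 24, 32 and 17 of 578, 645 and 353 Traj counts and did not lead its class, where Traj17 had 79 counts in replicate 1 and Traj2 had 80 and 66 in replicates 2 and 3. Zbtb16, which encodes the lineage factor PLZF of NKT cells, had 31.5, 24.6 and 16.4 CPM. Trav11 has a near-copy, Trav11d, which was listed at 0 in all 3 libraries.

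Constant regions of the γδ receptor were also present. Trgc2 had 23.6, 13.9 and 4.19 CPM, Trgc4 20.3, 17.3 and 4.31 CPM and Trgc1 9.25, 11.2 and 4.49 CPM. Trdc, the only δ constant region, had 3.57, 0.208 and 0.222 CPM and was thus near the floor in replicates 2 and 3. The 5 genes summed to 56.7, 42.9 and 13.2 CPM. Rearranged γ genes are also transcribed in some αβ T cells, and these values do not tell γδ T cells from them.

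Of the coreceptors, Cd4 had the highest level per kb. Cd4 (chromosome 6, 124841655 to 124874758) had 78.5, 51.1 and 57.4 CPM, and Cd8a had 0.962, 1.50 and 0.710 CPM. Per kb, their means were 37.9 and 0.355 CPM per kb, and Cd4 exceeded Cd8a in each library. Cd8b1 had 15.6, 1.64 and 3.59 CPM, so that replicate 1 stood above the others for the β chain of CD8. Cd8b1 thus lay above Cd8a in CPM in each library, and these values do not measure the purity of the sorted cells. Zbtb7b, the lineage factor of CD4+ T cells known as ThPOK, had 8.20, 18.5 and 9.43 CPM, and Runx3, its counterpart in CD8 T cells, 1.22, 0.987 and 1.06 CPM.

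Genes of T cell identity and receptor signalling were detected throughout, with all 19 measured members above 3 counts in each library. They summed to 2242, 2121 and 1490 CPM. Cd2, an adhesion receptor, had 407, 290 and 207 CPM. Lat, the adaptor that links the receptor to downstream kinases, had 338, 251 and 223 CPM. Lck, the kinase that phosphorylates the CD3 chains, had 209, 301 and 151 CPM and was thus highest in replicate 2. Per kb, Cd2 had a mean of 251 ± 83.8 CPM per kb. Of the 18 members with a mean of 5 CPM or more, 11 were highest in replicate 1 and lowest in replicate 3, where 20.5% of all genes had this order. The widest ratios between libraries were those of Lcp2, which encodes the adaptor SLP-76 (8.18, 5.27 and 1.39 CPM), and of Themis (8.36, 10.6 and 1.84 CPM). Thy1, which neurons also express, went the other way with 113, 142 and 157 CPM.

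Most genes of naive and central memory T cells were highest in replicate 1. Their 12 members summed to 2738, 1088 and 1067 CPM. Klf2, a factor that keeps T cells in circulation and is also found in endothelium, had 1350, 402 and 576 CPM. Ccr7, the receptor for homing to lymph nodes, had 387, 134 and 80.9 CPM. Il7r had 263, 108 and 95.0 CPM and S1pr1, the receptor for exit from lymph nodes, 155, 66.2 and 49.5 CPM. Replicate 1 was highest for each of these genes. Lef1 differed from this with 26.5, 30.8 and 10.1 CPM. Of the 11 members with a mean of 5 CPM or more, 10 were over 2-fold higher in replicate 1 than in replicate 3, as were 10.6% of all genes.

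Genes of effector and memory T cells were less uneven. The 18 members summed to 1263, 1309 and 926 CPM. Id2, a regulator that supports effector cells, had the highest level per kb of the list (295 CPM per kb on average). It made up 818, 749 and 561 CPM of these sums, which is most of them. Cxcr6, a receptor of tissue T cells and of NKT cells, had 85.0, 130 and 29.7 CPM. Lgals1 and Lgals3 (galectins) had 25.2, 35.6 and 20.8 and 55.5, 57.2 and 47.0 CPM. Cd44 had 16.2, 33.7 and 20.6 CPM. Prdm1, which encodes Blimp-1, had 13.0, 2.76 and 2.09 CPM and thus the widest difference of the list between libraries above the floor. S100a10 and Itgb1, integrin β1, were listed at 0 in 2 of the 3 libraries.

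Th1 genes included a cytokine at high level, and the 12 members summed to 749, 479 and 390 CPM. Ifng, the interferon-γ gene on chromosome 10 (118276951 to 118281797), had 363, 135 and 110 CPM. It was thus 3.31 times higher in replicate 1 than in replicate 3, and it was the member with the highest level per kb (256 ± 176 CPM per kb). Tbx21, which encodes T-bet, had 33.0, 51.2 and 28.1 CPM, so that the factor and its cytokine were highest in different libraries. Hopx, known from long-lived Th1 cells, had 117, 110 and 95.2 CPM. Cxcr3 had 83.2, 53.9 and 25.9 CPM and Ccl5 51.4, 59.2 and 80.4 CPM. Eomes, the related T-box factor, had 0.193, 0.812 and 0 CPM.

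The Th17 cytokines were lower than Ifng per kb, with means of 11.4 for Il17a, 11.5 for Il22 and 256 CPM per kb for Ifng. Il17a had 25.6, 10.2 and 4.31 CPM and Il22 had 22.7, 9.77 and 5.97 CPM. Both cytokines were highest in replicate 1, by ratios of 5.93 and 3.80 over replicate 3. Il17f had 0.596, 0.320 and 1.25 CPM, and Il23r 0.0770, 0.146 and 0 CPM. Rora, a nuclear receptor that other T cells express too, had 98.2, 57.0 and 45.9 CPM. Ahr, a factor that promotes IL-22, had 15.5, 14.3 and 8.82 CPM.

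Among Th2 genes, the lineage factor and the leading cytokine were present together. Gata3, which all T cells express to a degree, had 44.2, 47.0 and 16.5 CPM. Il4 had 25.3, 45.3 and 12.5 CPM, highest in replicate 2 as Gata3 was. Il5 had 0.462, 0 and 0 CPM and Il13 0.500, 0.0972 and 0.0501 CPM, so that both were at or under the floor of 3 counts in replicates 2 and 3 and stood at 12 and 13 counts in replicate 1. Ccr8 had 39.6, 29.5 and 36.4 CPM and did not share the low value of replicate 3.

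Regulatory T cell genes were detected, with a median ratio of the highest to the lowest library of 2.72 over the 10 members with a mean of 5 CPM or more. Foxp3 had 15.2, 8.79 and 10.8 CPM and Il2ra, the α chain of the IL-2 receptor, 13.5, 13.0 and 11.0 CPM. Tnfrsf4 (OX40) had 125, 167 and 123 CPM, Ctla4 72.5, 33.2 and 27.9 CPM and Tnfrsf18 (GITR) 29.3, 28.3 and 16.9 CPM, and activated conventional T cells express these receptors as well. Il10 had 16.5, 7.68 and 5.82 CPM. Of the genes of follicular helper T cells, Icos (126, 74.0 and 67.0 CPM) and Pdcd1, which encodes PD-1 (70.5, 39.8 and 50.5 CPM), were present, whereas Cxcr5 had 2.66, 2.53 and 0.301 CPM and Bcl6 4.08, 2.97 and 3.71 CPM.

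**Figure D2:**
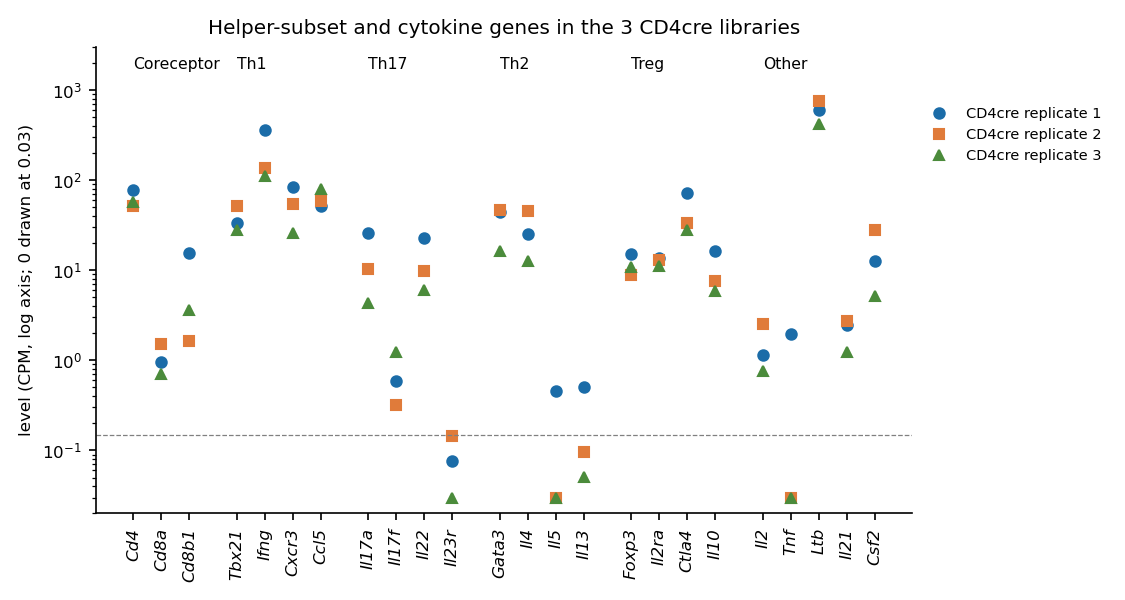
CPM (log axis) of coreceptor, helper-subset and cytokine genes in the 3 CD4cre libraries, where values of 0 are drawn at 0.03 and the dashed line marks 0.15 CPM, the floor of 3 counts in replicate 3. Ltb and Ifng have the highest CPM of the cytokine genes shown, while Il5, Il13 and Il23r lie near or below the floor in at least 2 libraries.

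Of the 50 cytokine genes listed, 35 were above 3 counts in all 3 libraries and 6 at or under 3 counts in each. Ltb, which encodes lymphotoxin β, led with 602, 757 and 418 CPM, or 489 CPM per kb on average. After Ifng (256 CPM per kb) followed Xcl1 (94.9 CPM per kb), a chemokine of activated T and NK cells, with 34.6, 87.0 and 27.3 CPM, and Il4 (48.9 CPM per kb). Lta had 17.3, 42.7 and 10.7 CPM and Csf2, which encodes GM-CSF, 12.7, 27.7 and 5.16 CPM. Xcl1, Lta and Csf2 were thus highest in replicate 2, and so was Lif (0.501, 9.50 and 1.25 CPM). Osm went with replicate 1 at 19.4, 3.79 and 2.51 CPM. Il2 had 1.16, 2.53 and 0.754 CPM, Il21 2.47, 2.75 and 1.24 CPM and Tnf 1.95, 0 and 0 CPM. Il3, Il9, Il12b and Csf3 were listed at 0 in all 3 libraries, and Il6 had 0, 0.0972 and 0 CPM.

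Most chemokine ligand genes were lowest in replicate 2. Of the 16 ligands with a mean of 5 CPM or more, 10 were highest in replicate 1 and lowest in replicate 2, an order shown by 16.7% of all genes. Ccl3 had 147, 29.2 and 113 CPM, Cxcl2 116, 15.0 and 43.5 CPM, and Cxcl16, the ligand of CXCR6, 49.6, 5.64 and 14.1 CPM. Macrophage genes had the same order of libraries, with sums of 3659, 1121 and 2104 CPM, and their part in the chemokine values was not tested. Cx3cl1, which neurons and endothelium express, had 274, 341 and 360 CPM, or 180 CPM per kb on average. The 20 receptors summed to 883, 513 and 279 CPM. Cxcr4 had 40.3, 28.7 and 9.18 CPM and Ccr2 22.8, 28.2 and 7.61 CPM.

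Cytotoxic and NK cell genes were highest in replicate 2, with sums of 300, 486 and 229 CPM over 17 members. Nkg7 had 69.3, 160 and 109 CPM and Ctsw 74.0, 180 and 53.8 CPM. Gzmb, which encodes granzyme B, had 1024, 1066 and 239 counts, or 39.4 and 51.8 CPM in replicates 1 and 2. Prf1 (perforin) had 7.08, 2.29 and 4.91 CPM. Klrb1c (NK1.1), found on NK and NKT cells, had 9.03, 15.4 and 3.11 CPM. Ncr1, which marks NK cells, was listed at 0 in all 3 libraries.

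Immediate early genes, with Junb among the 30 genes of highest level per kb, differed widely between the mice. The 29 members summed to 23741, 10800 and 9533 CPM, or 2.40%, 1.13% and 0.999% of all counts. Junb had 6131, 2806 and 2410 CPM, Jun 2608, 1013 and 889 CPM and Fos 1976, 540 and 736 CPM; their products are the subunits of the AP-1 factor. Dusp1, a phosphatase that dampens MAP kinases, had 2110, 889 and 391 CPM. Cd69, the early activation receptor, had 257, 80.2 and 81.9 CPM. Replicate 1 was highest for each of these genes. Of the 26 members with a mean of 5 CPM or more, 14 were highest in replicate 1 and lowest in replicate 3 (20.5% of all genes), and another 7 highest in replicate 1 and lowest in replicate 2 (16.7%). Nr4a2 and Nr4a3, nuclear receptors induced by receptor signalling, were exceptions with 45.9, 77.5 and 58.6 and 64.5, 90.1 and 71.0 CPM. Other cell types induce the same genes, and the macrophage list, Hspa1a and Hspa1b were highest in replicate 1 too. Their part was not tested.

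The inducible chaperone genes Hspa1a and Hspa1b, from a list added after values had been seen, were highest in replicate 1 and lowest in replicate 3. Hspa1a had 9527, 5065 and 3569 CPM and Hspa1b 9232, 3641 and 2225 CPM. These are the stress-inducible members of the HSP70 family. Hspa8, the constitutive member, had 1849, 1615 and 1714 CPM, and Hsp90ab1 680, 647 and 644 CPM. Replicate 1 thus stood out for Hspa1a and Hspa1b and less for Hspa8 and Hsp90ab1. Of the words of 31 bases in Hspa1a transcripts, 63.8% also occur in Hspa1b, so that the split between both genes is uncertain.

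Promoters of an inducible chaperone and an immediate early gene are shown because both genes were highest in replicate 1, although Hspa1a was lowest in replicate 3 and Fos in replicate 2. They are taken from RefSeq on GRCm38.p6 and hold the 250 bases before the start of the gene, at chr17:34972157-34972406 on the minus strand for Hspa1a and chr12:85473640-85473889 on the plus strand for Fos. Capitals mark GAANNTTC, the core of a heat shock element, in Hspa1a, and TGACG, the core of a cyclic AMP response element, and TATAAA in Fos.
Hspa1a: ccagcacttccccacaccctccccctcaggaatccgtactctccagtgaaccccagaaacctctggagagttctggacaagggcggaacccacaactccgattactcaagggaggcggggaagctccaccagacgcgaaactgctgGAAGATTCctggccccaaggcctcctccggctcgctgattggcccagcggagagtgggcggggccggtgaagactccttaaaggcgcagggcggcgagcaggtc
Fos: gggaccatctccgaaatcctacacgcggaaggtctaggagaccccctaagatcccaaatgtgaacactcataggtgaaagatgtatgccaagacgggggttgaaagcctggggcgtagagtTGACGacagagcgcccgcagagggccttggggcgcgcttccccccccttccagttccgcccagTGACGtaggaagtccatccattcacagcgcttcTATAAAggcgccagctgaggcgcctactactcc
Hspa1a and Hspa1b each held 1 match of GAANNTTC, as did Jun, and their promoters differed at 3 of 250 bases. Fos held 2 matches of TGACG, Junb 1 and Jun 0. On both strands, GAANNTTC occurred in 6.78% and TGACG in 17.9% of the 27025 mouse promoters of this length. These matches describe the letters in the window and nothing more.

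Costimulatory and inhibitory receptors had sums of 1247, 844 and 669 CPM, and 11 of their 16 members with a mean of 5 CPM or more were highest in replicate 1 and lowest in replicate 3 (20.5% of all genes). Il2rb had 195, 175 and 145 CPM and Cd28 174, 117 and 61.4 CPM. Cd40lg, the ligand by which helper T cells stimulate B cells and macrophages, had 48.5, 32.9 and 23.2 CPM. Lag3 had 0.622, 0.732 and 0.612 CPM, Havcr2 (TIM-3) 2.78, 0 and 0 CPM, and Tnfrsf1b was listed at 0 in all 3 libraries.

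NFκB pathway genes summed to 3082, 2558 and 1946 CPM over 21 members, most of it from Nfkbia. Nfkbia, which encodes the inhibitor IκBα and is itself induced by NFκB, had 2154, 1666 and 1273 CPM. Among the subunits, Nfkb2 of the alternative pathway had 79.7, 89.2 and 84.1 CPM, Rela 61.4, 49.9 and 39.0 CPM, Nfkb1 47.1, 56.6 and 33.8 CPM and Relb 21.3, 12.1 and 36.0 CPM. Of the kinases, Chuk (IKK1) had 16.6, 33.2 and 16.3 CPM, Ikbkb (IKK2) 33.9, 61.1 and 21.1 CPM and Map3k14 (NIK) 19.5, 19.6 and 14.7 CPM. Chuk and Map3k14 are the genes targeted in the other groups, where Chuk had 15.3 to 26.5 CPM in CD4IKK1 and Map3k14 12.9 to 30.7 CPM in CD4NIK libraries, both ranges overlapping with CD4cre. These values are summed over transcripts and do not resolve the floxed exons. Nfkbib had 0.110, 0 and 0 CPM.

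MHC class I genes were highest in replicate 1, with sums of 5659, 3984 and 2807 CPM. H2-D1 had 2928, 2124 and 1569 CPM and B2m 1324, 832 and 502 CPM. Tap1, the peptide transporter, had the widest spread with 89.0, 12.6 and 32.3 CPM. Interferon-stimulated genes summed to 295, 226 and 159 CPM over 20 members, with Bst2 at 31.6, 38.7 and 21.6 CPM, while Rsad2 was listed at 0. Cell cycle genes summed to 534, 357 and 300 CPM, of which Hmgb2 (272, 152 and 102 CPM) and Pcna (126, 91.4 and 109 CPM) made up most. Mki67 had 8.20, 9.24 and 8.37 CPM and Ube2c was listed at 0.

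Of other leukocytes, macrophage genes were highest in replicate 1 and lowest in replicate 2, whereas neutrophil genes summed to 19.1 CPM at most. The 22 macrophage and monocyte genes summed to 3659, 1121 and 2104 CPM. The complement genes C1qb and C1qa, made by tissue macrophages, had 597, 116 and 266 CPM and 327, 43.3 and 178 CPM. Cd14 had 179, 13.9 and 67.2 CPM and Csf1r 42.0, 22.5 and 36.3 CPM. Of the 13 members with a mean of 5 CPM or more, 12 were highest in replicate 1 and lowest in replicate 2, an order shown by 16.7% of all genes. Apoe, which astrocytes and other cells also make, accounted for 1546, 625 and 1152 CPM of the sums. The defining markers Itgam (CD11b), Adgre1 (F4/80) and Fcer1g were listed at 0, at 0, 0 and 3.02 CPM and at 0.0547, 0 and 0.761 CPM.

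MHC class II genes were present at 293, 224 and 280 CPM in all, with H2-DMa at 124, 113 and 141 CPM and H2-Ab1 at 60.3, 50.0 and 57.7 CPM. Dendritic cell genes came to 895, 881 and 941 CPM, of which Cst3, which is broadly expressed, made up 861, 847 and 910 CPM, and Clec9a was listed at 0. Of the B cell genes, Ighm had 98.6, 138 and 61.8 CPM, whereas Pax5 was listed at 0 and Igkc had 1.27, 0.389 and 2.26 CPM. The 14 neutrophil genes summed to 10.4, 19.1 and 6.07 CPM, with S100a9 and Ly6g at 0. The 6 mast cell and basophil genes measured were at or under 3 counts in each library.

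Kidney tubule genes were highest in replicate 2, with sums of 222, 369 and 205 CPM over 24 members. Calb1, which neurons also express, made up 128, 161 and 147 CPM. Umod (uromodulin of the thick ascending limb) had 3.66, 41.0 and 4.66 CPM and Fxyd2, a subunit of the sodium pump, 35.7, 97.8 and 25.8 CPM. Slc12a3 of the distal tubule had 1.58, 11.3 and 1.61 CPM and Slc34a1 of the proximal tubule 0.115, 4.81 and 0 CPM. Of the 5 members with a mean of 5 CPM or more, 4 were highest in replicate 2, 3 of them lowest in replicate 1 and 1 lowest in replicate 3, orders shown by 15.0% and 14.5% of all genes. Ass1, the fifth, had 20.6, 4.23 and 4.76 CPM. Havcr1 (KIM-1), induced in injured proximal tubules, had 0.0385, 0.389 and 0 CPM. The endothelial list came to 308, 334 and 335 CPM, mostly from Ehd3, Plvap and Egfl7, while Cdh5 and Tek were listed at 0. Acta2 of smooth muscle was at 0 as well.

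Haemoglobin genes were abundant and even between libraries, with 1103, 1338 and 1069 CPM for Hbb-bs and 475, 670 and 598 CPM for Hba-a2. Alas2 of red blood cell precursors had 3.41, 0 and 4.41 CPM, and Slc4a1 was listed at 0. Platelet genes summed to 22.1, 11.9 and 33.7 CPM.

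The neuronal genes covered neurofilaments, synaptic and transmitter genes alike. Beside Stmn3, Stmn2 had 730, 828 and 810 CPM, Nefl, the light neurofilament, 683, 820 and 888 CPM and Slc17a7, the vesicular glutamate transporter, 516, 553 and 666 CPM. Rbfox3, which encodes the nuclear antigen NeuN, had 298, 297 and 367 CPM, and Sst (somatostatin) 127, 132 and 145 CPM. The values of a gene were close between libraries, with a median ratio of the highest to the lowest of 1.29 over the 17 members with a mean of 5 CPM or more, beside 1.47 for all genes. Of these 17, 9 were highest in replicate 3 and lowest in replicate 1 (19.0% of all genes) and 5 highest in replicate 3 and lowest in replicate 2 (14.3%). Of the 19 members, 18 were above 3 counts in each library. Some were listed at low values, such as Syp with 1.57, 3.84 and 2.84 CPM and Camk2a with 0.0770, 1.61 and 1.30 CPM. Of the glial genes, Mbp (myelin basic protein) had 357, 408 and 509 CPM and Mobp 128, 105 and 159 CPM, whereas Gfap of astrocytes had 0, 0 and 0.778 CPM. No label or method of the study names brain or nerve tissue, and the source of these transcripts was not tested.

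**Figure D3:**
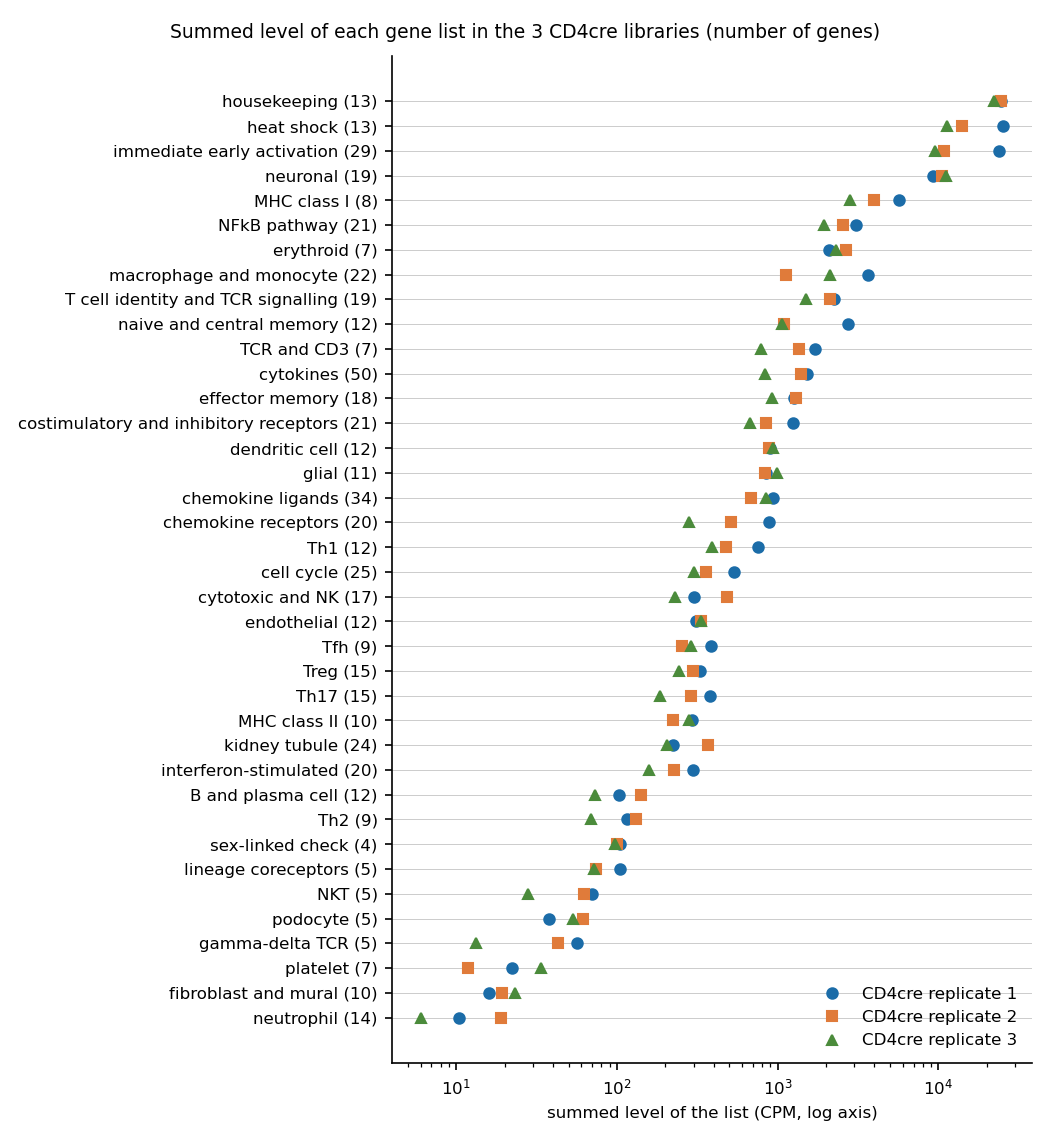
Summed CPM (log axis) of each gene list in the 3 CD4cre libraries, with the number of genes measured in parentheses. Neuronal genes sum to 9317 to 11208 CPM and T cell receptor and CD3 genes to 788 to 1704 CPM, and macrophage genes are lowest in replicate 2.

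Across all 10145 genes with a mean of 5 CPM or more, the median ratio of the highest to the lowest library was 1.47, and the orders of the 3 libraries were unevenly filled. Replicate 1 was highest and replicate 3 lowest for 20.5% of the genes, and the reverse held for 19.0%. Replicate 1 was over 2-fold higher than replicate 3 for 10.6% of the genes and over 2-fold lower for 4.29%. The median ratio was 1.13 for housekeeping genes, 1.29 for neuronal genes, 2.50 for immediate early genes, 3.13 for naive and central memory genes and 4.05 for macrophage genes. Lists with 3 such members or fewer ranged from 1.19 for dendritic cell genes to 12.8 for neutrophil genes, the latter from 1 member. Housekeeping genes were not all even, since Rplp0 had 490, 228 and 229 CPM.

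**Figure D4:**
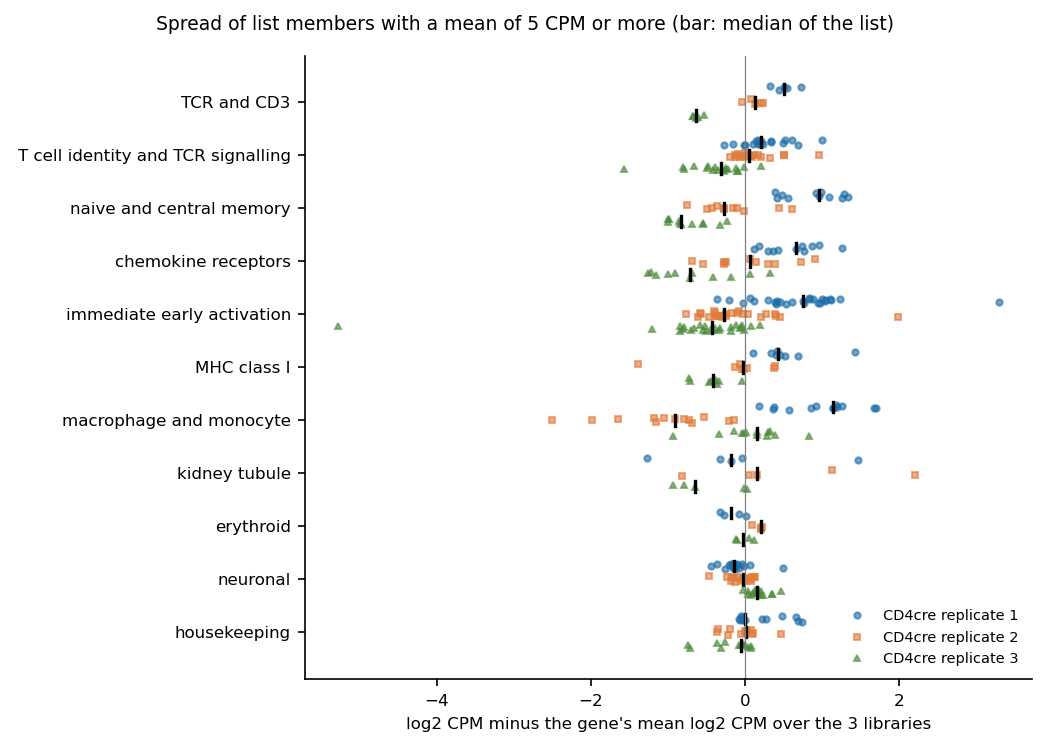
Log2 CPM of each list member with a mean of 5 CPM or more, as the difference from the mean of that gene over the 3 CD4cre libraries, where values under 0.15 CPM are set to 0.15 and the black bars are list medians per library. Receptor, naive, immediate early and MHC class I genes lie to the right in replicate 1, macrophage genes to the left in replicate 2, and neuronal genes close to 0 in all libraries.

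The 10 genes with the largest ratio of the highest to the lowest library, among those with a mean of 20 CPM or more, included 5 that nearly dropped out of 1 library. Atf3, a stress-induced factor, had 1487, 472 and 1 counts, Golga2, a Golgi matrix protein, 1354, 0 and 356 counts, Ivns1abp 750, 860 and 3 counts, Dusp3 763, 908 and 4 counts and Polr2m 1647, 9 and 771 counts. Klk1, a kallikrein of the distal nephron, had 99.0, 323 and 11.8 CPM and was highest in replicate 2. Ets2, Ubr4 and Kdm3a also belonged to the group, with ratios of 24.7, 22.4 and 18.4.

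Set beside the other groups, the CD4cre libraries lay between CD4IKK1 and CD4NIK in T cell transcripts. The T cell receptor and CD3 genes summed to 788 to 1704 CPM in CD4cre, to 4.48 to 800 CPM (median 308) in CD4IKK1 and to 4131 to 7849 CPM (median 6779) in CD4NIK libraries. CD4cre and CD4NIK did not overlap, while the highest CD4IKK1 library reached above the lowest CD4cre library. The neuronal list had the opposite order, with 9317 to 11208 CPM in CD4cre, 12118 to 14510 CPM in CD4IKK1 and 3245 to 6684 CPM in CD4NIK libraries. The part of neuronal transcripts in the differences between groups was not tested.

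**Figure D5:**
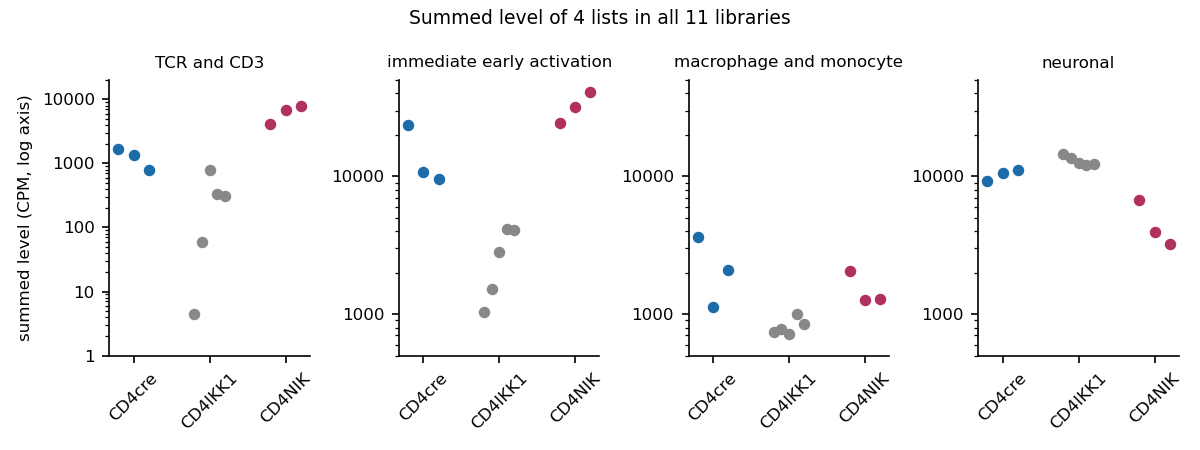
Summed CPM (log axis) of 4 gene lists in all 11 libraries, with 1 point per library and a wider axis range for the receptor list. For T cell receptor and CD3 genes, CD4cre libraries (788 to 1704 CPM) lie below CD4NIK libraries, and for neuronal genes above them.

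Between CD4NIK and CD4cre, edgeR's quasi-likelihood test called 1586 of 15209 genes higher in CD4NIK (10.4%) and 1063 lower (6.99%) at an FDR under 0.05 and more than 2-fold. With library totals in place of TMM factors the split was 1382 higher and 1438 lower, and the median of all genes moved from −0.02 to −0.15 on the log2 scale. In 1 fit of all 11 libraries it was 865 higher and 1264 lower. Leaving out 1 library changed the calls of lower genes in both directions. There were 1695 higher and 1773 lower without CD4NIK replicate 1, 1703 and 786 without CD4cre replicate 1, 884 higher and 117 lower without CD4cre replicate 2, 780 and 79 without CD4cre replicate 3, 852 and 66 without CD4NIK replicate 2, and 614 and 60 without CD4NIK replicate 3. Of the T cell receptor and CD3 genes, 6 of 7 were called higher in CD4NIK, of the Th1 genes 10 of 12, of the MHC class I genes 8 of 8 and of the immediate early genes 10 of 28 tested. Of the neuronal genes, 11 of 19 were called lower by edgeR and 14 by DESeq2, and of the macrophage genes 2 of 19 tested were called higher. These counts were repeated under the other settings after their values had been seen. The neuronal calls fell to 1 without CD4cre replicate 2 and to 0 without CD4cre replicate 3, CD4NIK replicate 2 or CD4NIK replicate 3, and were 4 with the replicate number as a block. They numbered 10 without CD4cre replicate 1, 16 without CD4NIK replicate 1 and 13 in the fit of all 11 libraries. The receptor genes had 5 or 6 calls with each library left out but had 0 in the fit of all 11 libraries, where the Th1 and MHC class I genes had 3 each. The immediate early genes, of which 1 was called lower, had 2 calls higher in that fit, 5 with the block, 16 without CD4cre replicate 1, 4 without CD4cre replicate 2, 5 without CD4cre replicate 3, 5 without CD4NIK replicate 2 and 3 without CD4NIK replicate 3. The macrophage genes had 0 or 1 call higher with each library left out. Lists beyond these also held calls higher in the main fit, with 11 of 15 cytotoxic and NK genes and 5 of 13 housekeeping genes tested. Of the B and plasma cell genes 1 of 5 was called higher, and of the neutrophil genes 0 of 5. The calls of these further lists were not repeated under the other settings. Cd4 had 314 to 381 CPM in CD4NIK beside 51.1 to 78.5 CPM in CD4cre libraries, with no overlap (log2 change 2.49, SE 0.22, FDR 0.0017 from edgeR). In 1 edgeR fit of all 11 libraries, Cd4 kept its log2 change at 2.51 and its FDR rose to 0.106. Cd3e had 419 to 902 CPM in CD4NIK libraries (log2 change 2.96, SE 0.41, FDR 0.00502 from edgeR, and 0.125 with all 11 libraries). Stmn3 had 1010 to 2148 CPM in CD4NIK beside 2967 to 3571 CPM in CD4cre libraries (log2 change −1.16, SE 0.30, FDR 0.0297 from edgeR). Without CD4cre replicate 2 or 3, or without CD4NIK replicate 2 or 3, the FDR of Stmn3 lay between 0.0814 and 0.106. Ccr7, Junb and Fos were not called, with log2 changes of 1.10 (FDR 0.172), 0.89 (FDR 0.16) and 0.60 (FDR 0.367 from edgeR). Without CD4cre replicate 1, the log2 changes of Junb and Fos were 1.42 (FDR 0.0449) and 1.35 (FDR 0.027 from edgeR), so that both were called.

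Between CD4IKK1 and CD4cre, edgeR's test called 0 of 15653 genes in either direction (0%), with 1198 genes higher (7.65%) and 1394 lower (8.91%) in CD4IKK1 at an unadjusted p under 0.05. DESeq2 called 552 genes on the same libraries, 41 higher and 511 lower in CD4IKK1, and the edgeR fit of all 11 libraries called 129. The median log2 change was −2.14 for the 7 receptor genes, −2.15 for the 28 immediate early genes tested and 0.30 for the 19 neuronal genes, beside 0.02 for all genes. It was −1.98 for the 18 macrophage genes and −1.40 for the 6 erythroid genes tested. Macrophage sums were 721 to 1008 CPM in CD4IKK1 beside 1121 to 3659 CPM in CD4cre libraries, and erythroid sums 533 to 1612 beside 2083 to 2679 CPM, both without overlap. This was not particular to these lists. Immediate early sums (1044 to 4130 beside 9533 to 23741 CPM) and MHC class I sums (230 to 1399 beside 2807 to 5659 CPM) did not overlap either, while receptor sums did. The part of macrophage and erythroid transcripts in the lower receptor and immediate early values was not tested. Cd3e had 0.257 to 25.8 CPM in CD4IKK1 and 46.5 to 123 CPM in CD4cre libraries, which did not overlap, with a log2 change of −2.49 (SE 1.17, FDR 0.35 from edgeR). Both comparisons share the 3 CD4cre libraries, and a p that misses the threshold does not show that levels were the same.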

How the data were processed

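RNA-seq libraries of renal CD4+ T cells were used from 3 CD4cre, 5 CD4IKK1 and 3 CD4NIK mice, grouped by the sample titles. The authors trimmed reads with Trimmomatic and deposited kallisto estimated counts for 35814 gene symbols, without normalization. The paper names GRCm39 and the submitters' processing notes mm10 as the assembly, so that the build of the deposited values is not settled; which kallisto version and gene annotation were used is not given in the sources used here. kallisto divides shared reads, and 38.4% to 40.4% of the CD4cre values were not whole. No 2 of the 11 libraries (55 pairs) were identical.

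Levels are estimated counts scaled by TMM factors over all 11 libraries (edgeR 4.0.16, R 4.3.3). Transcript lengths and positions came from GENCODE release 39 on GRCm39 and matched 33508 symbols (93.6%). Levels within CD4cre carry no test. Counts were rounded, filtered by edgeR's expression filter and compared by the robust quasi-likelihood test of edgeR, each group against CD4cre with its own libraries (Benjamini-Hochberg FDR under 0.05 and more than 2-fold), with standard errors from the F statistic. DESeq2 1.42.0 was an alternative. On simulated counts for CD4NIK against CD4cre (15209 genes, 200 changed by 2 on the log2 scale), edgeR recovered 48% with 4 false calls and DESeq2 67% with 50. Members and the 37 gene lists were chosen with earlier results of these data known, and the chaperone and NKT lists were added after values had been seen. Of 527 listed genes, 520 were in the table. Genes named are list members with the highest level per kb, at or under the floor of 3 counts or with the largest ratio between libraries, the 30 genes of highest level per kb, the 10 of largest ratio, and genes that define a subset, whatever their level. Alternatives were RLE factors, library totals, TMM factors of CD4cre libraries only, a filter of 1 count, all 11 libraries in 1 fit, no fold threshold, the replicate number as a block, other transcript lengths and leaving out each library. Some genes that the lists or the rule for named genes cover are not reported here, in the text or the plots, but remain in sums and counts over lists.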

Additional observations from a re-analysis of the deposited data

How the results depend on the processing

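Within CD4cre, the summed levels of the receptor list (mean 1283, SD 463 CPM) and the neuronal list (mean 10342, SD 956 CPM) stayed within 1 SD under each scaling. The TMM factors (1.01 to 1.05) and RLE factors (1.03 to 1.07) differ little beside these SDs, so that this outcome was nearly fixed beforehand. The dendritic cell sum, mostly Cst3, was 938 CPM with library totals and with TMM factors from the 3 CD4cre libraries, outside its narrow SD. Levels per kb of 19 of the 37 genes recomputed moved by more than 1 SD with the longest transcript in place of the median length. For CD4NIK against CD4cre, the 2649 calls became 3873 with DESeq2 and 1185 with the replicate block, and leaving out 1 library gave 674 to 3468. For CD4IKK1 against CD4cre, the 0 calls became 1 with RLE factors, 48 with a filter of 1 count, 129 with all 11 libraries in 1 fit, 552 with DESeq2 and 3 with the replicate block, and leaving out 1 library gave 0 to 23. Replicate numbers showed no sign of pairing the samples. Deviations of same-numbered libraries from their group means correlated at −0.16, 0.12 and −0.23 with CD4NIK and at −0.19, 0.05 and −0.07 with CD4IKK1. Differently numbered libraries ranged from −0.06 to 0.26 with CD4NIK and from −0.2 to 0.25 with CD4IKK1. With so few libraries, this check cannot decide whether a shared number stands for a shared batch. No log2 change of the named genes reversed in 572 recomputed values, of which 42 fell below and 12 rose above the threshold. Only genes called in the main fit could fall below it. All 42 therefore come from genes called for CD4NIK, since the main fit called 0 genes for CD4IKK1, and 572 is not their base. The causes were not tested. Values at or under the floor of 3 counts, such as those of Il23r in each CD4cre library, do not tell a low level from none.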
